A study of Mus musculus with 8 samples.

Results

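The genes of liver glycogen synthesis and breakdown were examined in the livers of LWT and LΔRbfox2 mice. The 8 genes, *Gys2*, *Pygl*, *Gbe1*, *Ugp2*, *Ppp1r3b*, *Ppp1r3c*, *Phka2* and *Pgm1*, were chosen by gene symbol, and they are 8 of the 46078 gene identifiers in the deposited counts. LWT mice carried 2 loxP-flanked *Rbfox2* alleles without Cre, and LΔRbfox2 mice carried the same alleles with Cre driven by the albumin promoter, which is active in hepatocytes, so other liver cells were expected to keep *Rbfox2*. The 8 livers came from mice fed a control diet (CD), which the labels also call chow, and were taken after fasting, for 16 h according to the design text of the series. The labels give 12 weeks on the diet, whereas the study's methods give 16 to 22 weeks from 8 weeks of age in male mice. There were 4 livers of each genotype, 1 poly(A) RNA-seq library per liver, and the time of day at which they were taken is not given in the sources used here.

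Glycogen is the branched glucose polymer in which hepatocytes store glucose after a meal and from which they release it during fasting. Glucose 6-phosphate is turned into glucose 1-phosphate by phosphoglucomutase and into UDP-glucose by UDP-glucose pyrophosphorylase. Glycogen synthase then extends the chain and the branching enzyme adds branches. Glycogen phosphorylase, switched on by phosphorylase kinase, removes glucose units, and protein phosphatase 1, brought to glycogen by targeting subunits, reverses these phosphorylations and turns on the synthase. These enzymes are largely controlled by phosphorylation and by metabolites, which mRNA counts do not measure.

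Total counts were 37482458 to 56177588 per liver. Scaling factors from the trimmed mean of M-values (TMM) were 1.02 to 1.14 in 6 livers, and 0.724 and 0.776 in LΔRbfox2 replicates 3 and 4. Levels are given as CPM, counts scaled to library size, on this scale, on which 3 counts are 0.0468 to 0.0929 CPM. *Rbfox2*, the deleted gene, was at 17.1, 10.4, 11.4 and 18.3 CPM in LWT replicates 1 to 4. In LΔRbfox2 replicates 1 to 4 it was at 4.61, 6.09, 2.24 and 3.19 CPM, below every LWT liver (exact two-sided permutation test, *P* = 0.0286, the smallest that 4 against 4 allows). The 6 hepatocyte markers were detected in every liver and summed to 47500 to 74600 CPM. The 5 skeletal muscle markers, which could point to the muscle forms of these enzymes, summed to at most 0.0582 CPM, with *Tnnt3* at 0 in every liver.

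Sequence upstream of 2 of the genes is shown because *Ugp2* gave the smallest *P* of the 8 genes and because *Ppp1r3c* alone of those with a RefSeq promoter window held an E-box. The RefSeq windows of the 250 bases before a start site on GRCm38.p6 covered 6 of the 8 genes, with 2 start sites for *Ugp2*. *Gys2* and *Ppp1r3b* were not matched. Both strands were searched for the E-box CACGTG, bound by clock and other basic helix-loop-helix factors, the cAMP response element TGACGTCA, the forkhead motif TGTTTAC and the CCAAT box CCAAT. None of these overlaps another in the stretches shown. Capitals mark the matches. The stretches are outside annotated exons and read 5′ to 3′ on the minus strand, which is the strand of both genes, at chr11:21371268-21371459 (192 bases) for the upstream start of *Ugp2* and at chr19:36736654-36736854 (201 bases) for *Ppp1r3c*.
Ugp2: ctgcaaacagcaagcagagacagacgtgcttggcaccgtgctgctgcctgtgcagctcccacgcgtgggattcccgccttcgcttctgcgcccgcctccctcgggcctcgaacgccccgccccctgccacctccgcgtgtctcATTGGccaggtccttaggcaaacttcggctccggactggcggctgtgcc
Ppp1r3c: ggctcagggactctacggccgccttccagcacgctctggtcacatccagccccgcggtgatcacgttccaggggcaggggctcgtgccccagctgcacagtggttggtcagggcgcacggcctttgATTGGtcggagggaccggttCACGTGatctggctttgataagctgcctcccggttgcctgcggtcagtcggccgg
In *Ugp2* the CCAAT box, on the opposite strand, began at −49 from the RefSeq start. In *Ppp1r3c* the E-box began at −104 and a CCAAT box, on the opposite strand, at −124. The window of the other *Ugp2* start and those of *Pygl*, *Gbe1* and *Phka2* held none of the 4 motifs, and that of *Pgm1* held 2 CCAAT boxes. Among all 32851 RefSeq windows, 6.02% held the E-box, 1.55% the cAMP response element, 3.17% the forkhead motif and 33.8% the CCAAT box. A match of letters is not a bound site, and its absence says only that these letters are not in the window.

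The letters of the RBFOX2 binding motif, TGCATG in DNA, occurred on the sense strand of the longest coding transcript of 5 of the 8 genes, against 55.6% of the 12143 tested genes with a coding transcript. There were 3 in *Gbe1* and 2 in each of *Gys2*, *Pygl*, *Ppp1r3b* and *Ppp1r3c*. *Ugp2*, *Phka2* and *Pgm1* had none in this transcript. Introns were not searched.

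The question was whether loss of *Rbfox2* in hepatocytes went with a different level of these mRNAs. No member passed the threshold, a Benjamini–Hochberg adjusted *P* of at most 0.05 in the quasi-likelihood test of edgeR, and 0% of the 13856 genes tested passed it (DESeq2 called 10, none of them one of the 8). At an unadjusted *P* under 0.05, 1356 genes were found, a count that single livers moved, from 404 without LΔRbfox2 replicate 4, 505 without LWT replicate 4, 550 without LΔRbfox2 replicate 3, 608 without LWT replicate 1 and 852 without LWT replicate 3 to 2531 without LWT replicate 2 and 3475 without LΔRbfox2 replicate 2. Of the 8 members, all of which were tested, 1 was higher in LΔRbfox2 livers at that unadjusted level, where 7.95% of all genes were, and 0 were lower, where 1.83% were. By sign alone 3 were higher and 5 lower. The median log2 fold change was −0.14, and it was −0.0153 over all genes tested. The CPM values of the genotypes overlapped for every member (0 of 8 without overlap), against 1.05% of all genes higher without overlap and 1.23% lower. The share of higher genes among those under 0.05 depended on the processing, with 1102 higher and 254 lower by TMM and 829 and 338 by upper-quartile factors. There were 189 higher and 197 lower with the replicate number as a block and a length correction, and 82 and 89 without LΔRbfox2 replicates 3 and 4, so the excess of higher genes was not seen in those settings.

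**Figure D1:**
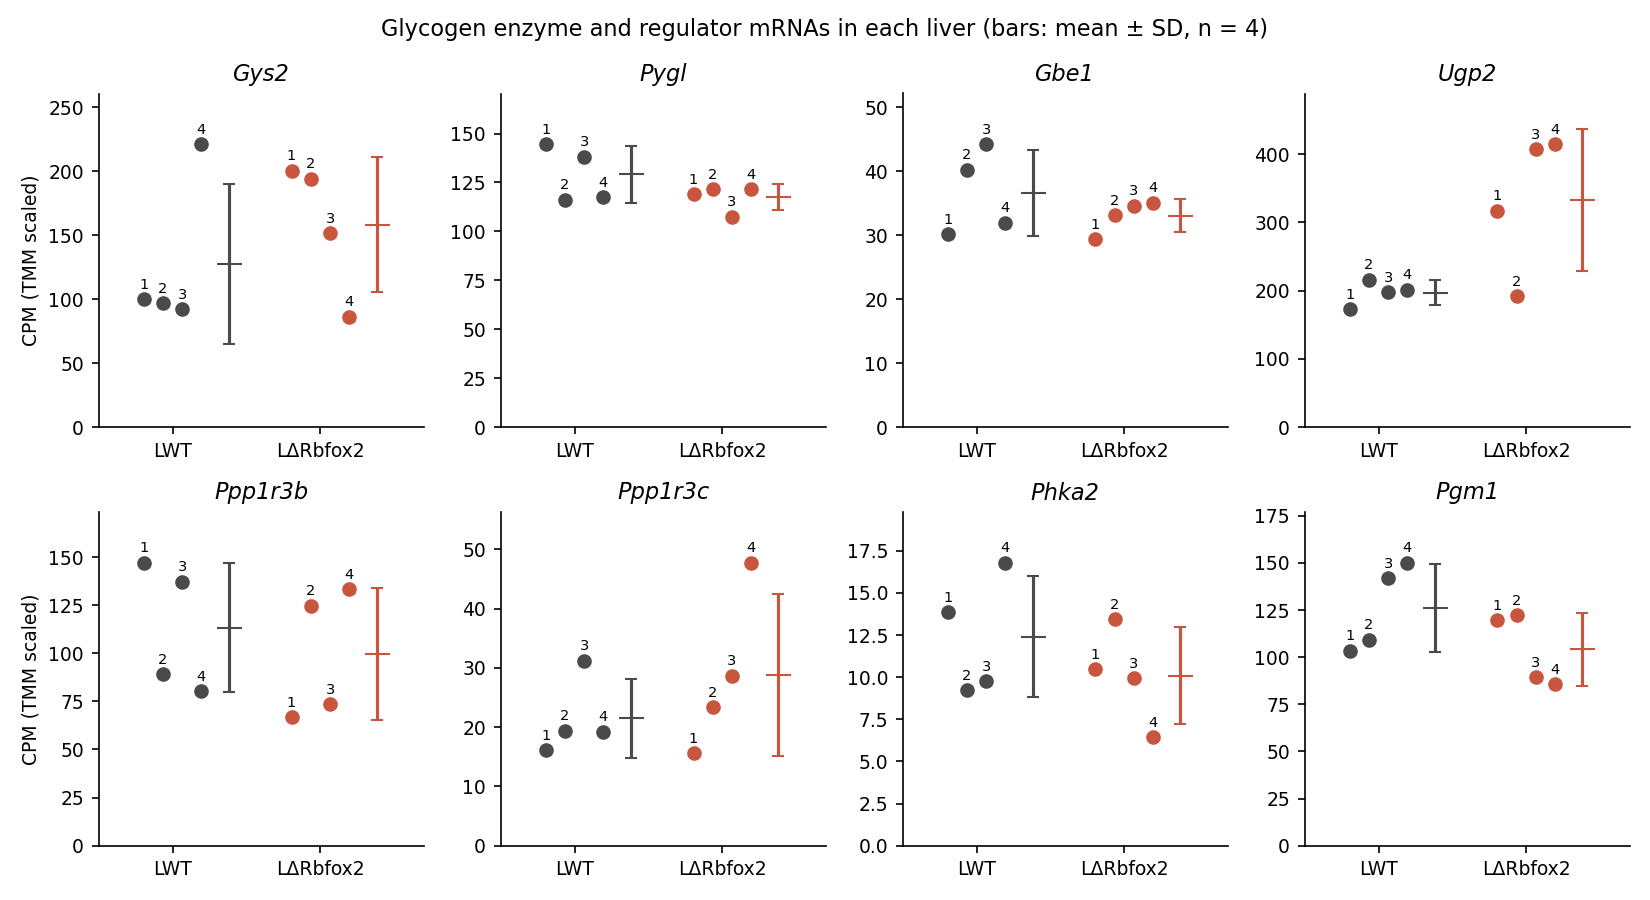
CPM (y axis, TMM scaled, from 0) of the 8 genes in each liver, by genotype. Points are single livers with their replicate number and bars are mean ± SD (n = 4). *Ugp2* lies at 317, 407 and 414 CPM in LΔRbfox2 replicates 1, 3 and 4, above every LWT liver, while replicate 2 is at 192 CPM, within the LWT range.

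*Ugp2*, which encodes UDP-glucose pyrophosphorylase, the enzyme that makes the glucose donor of glycogen synthase, was the member with the smallest *P*. The gene (ENSMUSG00000001891) spans 21321138 to 21371201 of chromosome 11 on the minus strand (GRCm38, as for all positions here). Its level was 173, 216, 198 and 201 CPM in LWT replicates 1 to 4 and 317, 192, 407 and 414 CPM in LΔRbfox2 replicates 1 to 4. Of the LΔRbfox2 livers, 3 lay above every LWT liver, and replicate 2, the liver with the most *Rbfox2* mRNA left, lay within the LWT range. The means were 197 ± 18.0 and 333 ± 104 CPM (SD, n = 4 each), a log2 fold change of 0.76 with a standard error of 0.25 and a 95% interval of 0.16 to 1.25 from limma-voom. The unadjusted *P* was 0.0104 and the adjusted *P* 0.504 (edgeR), so this difference did not pass the threshold over all genes. Without LΔRbfox2 replicate 2 it was 0.95, at an adjusted *P* of 0.0834 from edgeR. Correcting the libraries for the GC content of the genes moved it to 0.47 (unadjusted *P* = 0.0335), and leaving out LΔRbfox2 replicates 3 and 4 together, chosen after seeing the data, to 0.35 (unadjusted *P* = 0.213).

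The 3 livers with the most *Ugp2* mRNA were also the 3 with the most mRNA of red blood cell markers. The 5 markers, none at 0, summed to 382 to 729 CPM in LWT livers and to 869, 627, 1349 and 1526 CPM in LΔRbfox2 replicates 1 to 4. Of the 5, 4 were higher at an unadjusted *P* under 0.05 (edgeR), where 7.95% of all genes were. The 2 livers highest in *Ugp2*, LΔRbfox2 replicates 3 and 4, also had the lowest TMM factors. They were highest in the sum of the 5 cholangiocyte markers, at 60.9 and 31.3 CPM against 14.6 to 25.8 CPM in LWT livers, and lowest in that of the 5 sinusoidal endothelial markers, at 44.9 and 44.4 CPM against 50.0 to 63.8 CPM in LWT livers. None of the markers in either list was at 0 in every liver. Of those tested (4 cholangiocyte and 5 endothelial markers), 0 had an unadjusted *P* under 0.05 (edgeR), against 9.79% of all genes. The 5 Kupffer cell markers summed to 52.6 to 91.7 CPM in LWT livers. In LΔRbfox2 replicates 1 to 4 they summed to 61.8, 29.9, 54.5 and 41.6 CPM. Of the 5, 1 was lower at an unadjusted *P* under 0.05 (edgeR), where 1.83% of all genes were. The part of these values in the *Ugp2* result was not tested. In whole liver, fewer cells of a type and less RNA per cell cannot be told apart.

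*Pgm1*, the phosphoglucomutase that interconverts glucose 6-phosphate and glucose 1-phosphate, went by sign in the opposite direction. It (ENSMUSG00000025791) lies on the plus strand of chromosome 4, from 99929414 to 99987294. The names *Pgm1* and *Pgm2* have been exchanged between annotations, and the gene here is the one that both GENCODE M21 and RefSeq call *Pgm1*. It was at 103, 109, 142 and 150 CPM in LWT replicates 1 to 4 and at 120, 122, 89.5 and 85.7 CPM in LΔRbfox2 replicates 1 to 4. LWT replicates 3 and 4 were above every LΔRbfox2 liver, and LΔRbfox2 replicates 3 and 4 below every LWT liver. The log2 fold change was −0.27 (standard error 0.20, 95% interval −0.72 to 0.17), with an adjusted *P* of 0.585 from edgeR. Over single livers left out it was −0.384 to −0.179. It was −0.0815 without LΔRbfox2 replicates 3 and 4, a setting chosen after seeing the data. *Itgb3bp*, on the opposite strand, shares exon bases with this gene and had 31 to 93 counts, against 2768 to 7834 for *Pgm1*.

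*Gys2*, the liver form of glycogen synthase (ENSMUSG00000030244, chromosome 6, minus strand, 142422613 to 142473109), varied within both genotypes. It was at 100, 97.0, 92.1 and 221 CPM in LWT replicates 1 to 4. In LΔRbfox2 replicates 1 to 4 it was at 201, 194, 152 and 86.3 CPM. LWT replicate 4 was the highest of the 8 livers and LΔRbfox2 replicate 4 the lowest, so each genotype held 1 liver on the far side of the other genotype. The means were 128 ± 62.4 and 158 ± 52.7 CPM (SD, n = 4 each). The log2 fold change of 0.31 had a 95% interval of −0.44 to 1.11 (adjusted *P* = 0.697 from edgeR). Without LWT replicate 4 it was 0.71, with an unadjusted *P* of 0.0332 and an adjusted *P* of 0.899 (edgeR), and over the other single livers left out it was at least 0.18.

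*Gbe1* encodes the branching enzyme (ENSMUSG00000022707, chromosome 16, plus strand, 70313949 to 70569716) and was among the steadier members. Its level was 30.1, 40.2, 44.2 and 31.9 CPM in LWT replicates 1 to 4 and 29.4, 33.1, 34.6 and 35.0 CPM in LΔRbfox2 replicates 1 to 4. The LΔRbfox2 livers lay close together, within or just below the LWT range. The log2 fold change was −0.15, with a 95% interval of −0.52 to 0.25 and an adjusted *P* of 0.6997 from edgeR. Single livers moved this value, from −0.043 without LWT replicate 3 to −0.258 without LWT replicate 1.

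*Pygl*, the liver form of glycogen phosphorylase that releases glucose 1-phosphate from glycogen, had the smallest spread of the 8 genes. It (ENSMUSG00000021069, chromosome 12, minus strand, 70190811 to 70231488) was at 144, 116, 138 and 117 CPM in LWT replicates 1 to 4 and at 119, 122, 108 and 121 CPM in LΔRbfox2 replicates 1 to 4. The highest liver was 1.34-fold above the lowest, against 3.06-fold for *Ppp1r3c* and 2.56-fold for *Gys2*. Its log2 fold change of −0.14 had a 95% interval of −0.47 to 0.20, that is a fold of 0.723 to 1.15 (adjusted *P* = 0.695 from edgeR).

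*Phka2* encodes the liver alpha subunit of phosphorylase kinase, a regulatory subunit of the enzyme that activates phosphorylase. It (ENSMUSG00000031295, chromosome X, plus strand, 160502166 to 160598878) was at 13.8, 9.24, 9.77 and 16.8 CPM in LWT replicates 1 to 4. It was at 10.5, 13.5, 9.95 and 6.44 CPM in LΔRbfox2 replicates 1 to 4. LWT replicate 4 was the highest and LΔRbfox2 replicate 4 the lowest, and the other 6 livers were intermixed. The log2 fold change of −0.30 had a standard error of 0.27 and an adjusted *P* of 0.646 from edgeR, and it was −0.12 without LWT replicate 4 and −0.13 without LΔRbfox2 replicate 4.

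*Ppp1r3b* and *Ppp1r3c* encode subunits that carry protein phosphatase 1 to glycogen, the first being the form long known from liver. *Ppp1r3b* (ENSMUSG00000046794, chromosome 8, plus strand, 35375739 to 35388139) was at 147, 89.1, 137 and 80.2 CPM in LWT replicates 1 to 4 and at 66.7, 125, 73.5 and 133 CPM in LΔRbfox2 replicates 1 to 4. Each genotype thus held 2 high livers, at 125 to 147 CPM, and 2 low livers, at 66.7 to 89.1 CPM. Between genotypes it differed by a log2 fold change of −0.19 (standard error 0.29; adjusted *P* from edgeR, 0.773). Single livers moved this value, from −0.032 without LΔRbfox2 replicate 1 to −0.356 without LΔRbfox2 replicate 4.

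*Ppp1r3c* (ENSMUSG00000067279, chromosome 19, minus strand, 36731731 to 36736653), which encodes the subunit also called PTG, had the widest range of the members as a fold of the highest over the lowest liver (3.06). It was at 16.1, 19.4, 31.2 and 19.2 CPM in LWT replicates 1 to 4 and at 15.6, 23.3, 28.7 and 47.7 CPM in LΔRbfox2 replicates 1 to 4. LΔRbfox2 replicate 4 was above all other livers and LΔRbfox2 replicate 1 below them. The difference was 0.42 in log2 fold change (standard error 0.33; adjusted *P* from edgeR, 0.609), and it was 0.073 without LΔRbfox2 replicate 4 and −0.17 without LΔRbfox2 replicates 3 and 4.

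**Figure D2:**
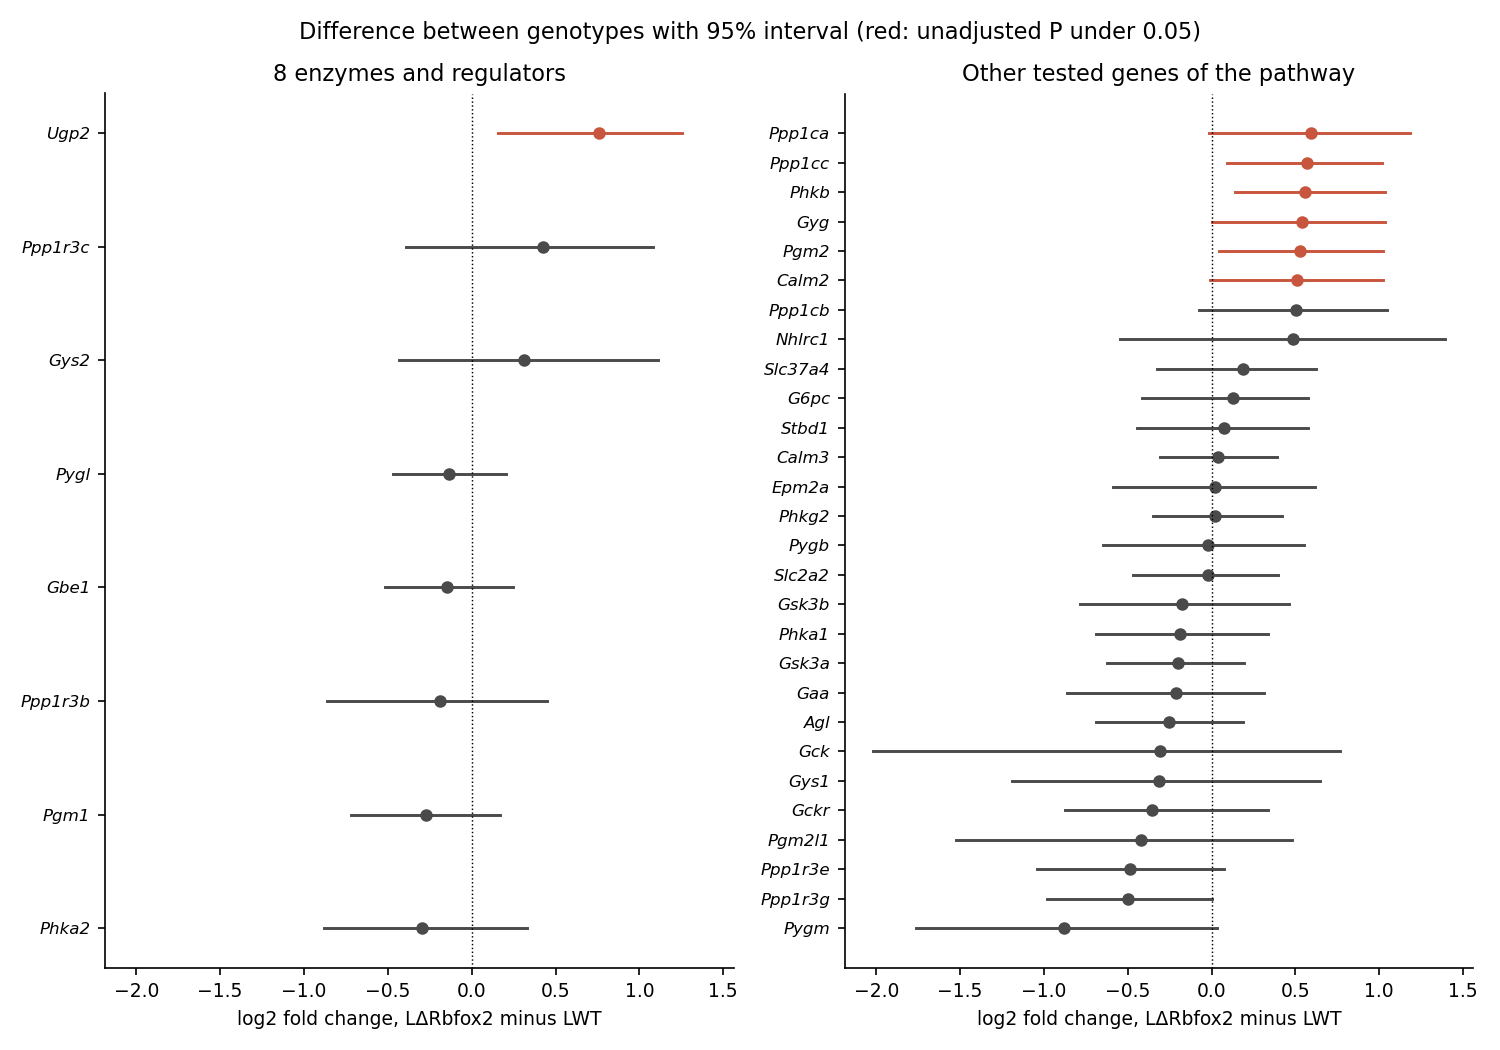
Log2 fold change between genotypes (x axis, LΔRbfox2 minus LWT) for the 8 genes (left) and tested genes of the pathway list (right), with points from edgeR and lines for the 95% interval from limma-voom. Red marks an unadjusted *P* under 0.05, reached by *Ugp2* alone on the left and by 6 genes on the right, all of them higher in LΔRbfox2 livers.

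To compare the abundance of the members, CPM was divided by the length of each gene's exons. The order of mean levels over the 8 livers was *Ugp2* (86.3 ± 32.6 CPM per kb, SD), *Gys2* (53.8 ± 21.05), *Pgm1* (39.4 ± 7.87), *Pygl* (17.9 ± 1.76), *Ppp1r3b* (17.1 ± 5.19), *Ppp1r3c* (9.23 ± 3.93), *Gbe1* (6.51 ± 0.948) and *Phka2* (1.85 ± 0.535), all in CPM per kb. Within this order, the ranges of mean ± SD overlapped between *Ugp2* and *Gys2*, *Gys2* and *Pgm1*, *Pygl* and *Ppp1r3b*, *Ppp1r3b* and *Ppp1r3c*, and *Ppp1r3c* and *Gbe1*. By exon length they did not overlap between *Pgm1* and *Pygl* or between *Gbe1* and *Phka2*. The length used mattered most for *Pygl*, which was at 41.2 CPM per kb by its longest coding transcript. With that length *Gbe1* (10.5 CPM per kb) stood above *Ppp1r3c* (9.23 CPM per kb), and the other ranks were kept. The ranges of *Pgm1* and *Pygl* then overlapped, and those of *Pygl* and *Ppp1r3b* (24.3 CPM per kb), of *Ppp1r3b* and *Gbe1*, and of *Ppp1r3c* and *Phka2* did not.

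Several members have a paralogue that serves other tissues, and ratios within a liver show which form was counted. All ratios given here are of CPM per kb of exon. *Gys2* was 106 to 174 times as high as *Gys1*, the muscle form of the synthase, in LWT livers and 144 to 377 times in LΔRbfox2 livers. *Pygl* was 35.8 to 57.3 times the sum of the brain and muscle phosphorylases *Pygb* and *Pygm* in LWT livers and 36.6 to 85.6 times in LΔRbfox2 livers. *Phka2* exceeded *Phka1*, the muscle alpha subunit, by 3.80 to 5.92 times in LWT and 3.16 to 5.19 times in LΔRbfox2 livers. The liver forms were thus the main ones in every liver of both genotypes, per kb of exon.

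The ratio of *Pgm1* to *Pgm2*, a related phosphopentomutase, was the 1 ratio of the 6 examined whose values did not overlap. It was 58.4, 77.7, 89.0 and 107 in LWT replicates 1 to 4 and 49.9, 48.2, 40.1 and 50.1 in LΔRbfox2 replicates 1 to 4. On the log2 scale the means were 6.34 ± 0.37 and 5.55 ± 0.15 (SD, n = 4 each), and no test was made because the ratio was singled out after its values were seen. *Pgm2* had only 54 to 68 counts in LWT livers and 49 to 144 in LΔRbfox2 livers. The ratio of *Ppp1r3b* to *Ppp1r3c* was 4.01, 2.02, 1.93 and 1.83 in LWT replicates 1 to 4 and 1.87, 2.35, 1.12 and 1.22 in LΔRbfox2 replicates 1 to 4. The 2 lowest values were in LΔRbfox2 replicates 3 and 4. The ratio of *Gys2* to *Pygl*, the synthesis and breakdown enzymes, ranged from 1.73 to 4.89 in LWT livers. In LΔRbfox2 livers it ranged from 1.84 to 4.37, and the genotypes overlapped throughout. That it was above 1 depended on the division by exon length. By CPM alone, *Gys2* was below *Pygl* in LWT replicates 1 to 3 and in LΔRbfox2 replicate 4.

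**Figure D3:**
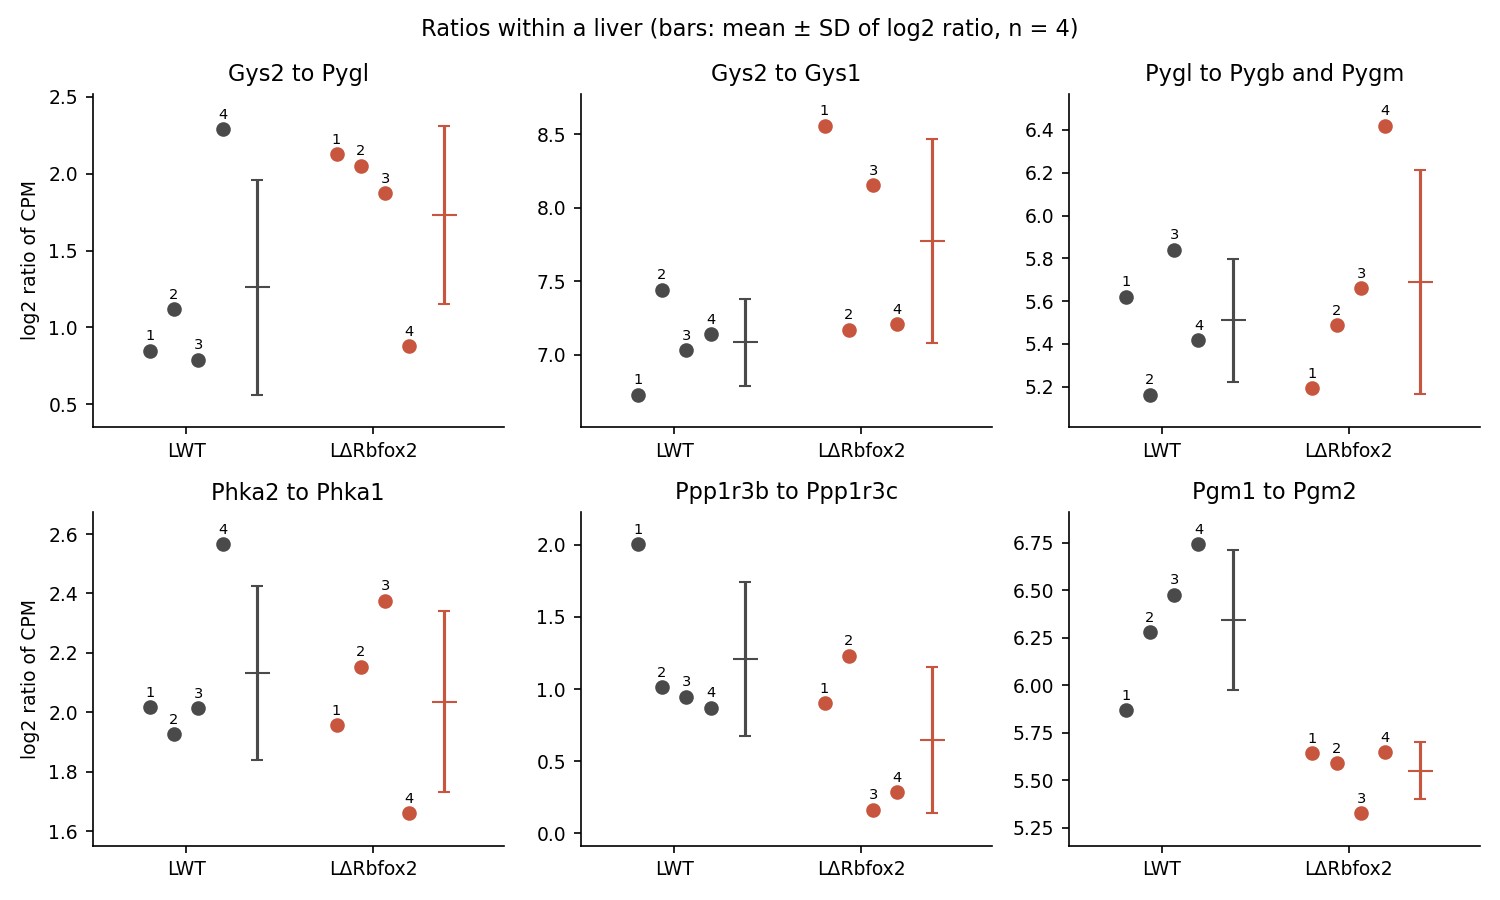
Log2 ratio of CPM per kb of exon (y axis, labelled log2 ratio of CPM) for 6 pairs of genes in each liver, by genotype. Replicate numbers are beside the points and bars are mean ± SD (n = 4). The *Pgm1* to *Pgm2* panel is the 1 without overlap, at ratios of 58.4 to 107 in LWT and 40.1 to 50.1 in LΔRbfox2 livers.

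A list of 33 other genes of glycogen metabolism and its control was examined beside the members, of which 29 were tested. At an unadjusted *P* under 0.05 (edgeR), 6 (20.7%) were higher in LΔRbfox2 livers, against 7.95% of all genes, and 0 were lower, against 1.83%, and 0 passed after adjustment. Single livers changed this count and its direction, with 0 higher and 2 lower (*Ppp1r3g* and *Pygm*) without LWT replicate 3, and with *Phkb* alone, higher, without LWT replicate 1, LWT replicate 4 or LΔRbfox2 replicate 3. Of all genes, 3.68% were higher and 2.34% lower without LWT replicate 3. The share higher was 3.0% without LWT replicate 1, 2.69% without LWT replicate 4 and 2.79% without LΔRbfox2 replicate 3. The shares lower were 1.31%, 0.895% and 1.08%. By sign, in the main test, 15 of the 29 list genes were higher and 14 lower, and their median log2 fold change was 0.018. With DESeq2 size factors 4 were higher and 2 lower at the unadjusted level, where 7.30% of all genes were higher and 1.98% lower, and with upper-quartile factors 2 and 2, where 5.98% and 2.44% were. The 6 were *Gyg*, glycogenin, the protein primer of glycogen (log2 fold change 0.54), *Phkb*, the beta subunit of phosphorylase kinase (0.56), *Calm2*, a calmodulin gene, calmodulin being its delta subunit (0.51), *Ppp1ca* (0.60) and *Ppp1cc* (0.57), catalytic subunits of protein phosphatase 1, and *Pgm2* (0.53). The standard errors of these 6 were 0.20 to 0.27, and each had an adjusted *P* of 0.504 (edgeR).

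All 3 catalytic subunits of protein phosphatase 1 had a positive log2 fold change, the third being *Ppp1cb* (0.50, unadjusted *P* = 0.07 from edgeR). Each was highest in LΔRbfox2 replicates 3 and 4, at 138 and 144 CPM for *Ppp1ca*, 115 and 144 CPM for *Ppp1cb* and 108 and 82.3 CPM for *Ppp1cc*, the livers with the lowest TMM factors and the highest red blood cell marker sums (1349 and 1526 CPM), and those that stood apart in cholangiocyte and sinusoidal endothelial markers as given for *Ugp2*. The part of these values was not tested. Without these 2 livers the log2 fold changes were 0.15 for *Ppp1ca*, 0.15 for *Ppp1cb* and 0.25 for *Ppp1cc*, with unadjusted *P* of 0.302 to 0.63 (edgeR). Among the 4 tested glycogen-targeting subunits, by contrast, *Ppp1r3g* (−0.50, unadjusted *P* = 0.0509 from edgeR), *Ppp1r3e* (−0.49) and *Ppp1r3b* (−0.19) were negative and *Ppp1r3c* (0.42) positive. Whether the subunit groups differ from each other was not tested. *Ppp1r3a*, *Ppp1r3d*, *Ppp1r3f* and *Phkg1* had too few counts to be tested. *Phkb* was at 12.0, 8.66, 8.69 and 13.7 CPM in LWT replicates 1 to 4 and at 14.3, 18.8, 15.8 and 14.5 CPM in LΔRbfox2 replicates 1 to 4, the 1 of the 29 tested list genes that was higher without overlap (1.05% of all genes were). *Ppp1r3g*, at 2.12, 2.39, 1.62 and 1.98 CPM in LWT and 1.62, 1.33, 1.54 and 1.24 CPM in LΔRbfox2 replicates 1 to 4, was the 1 that was lower without overlap (1.23% of all genes were), and its closest livers differed by less than the rounding.

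Among the most abundant genes of the list, per kb of exon, were *G6pc* (81.5 CPM per kb), the glucose-6-phosphatase that lets free glucose leave the hepatocyte, *Calm2* (44.4), *Slc37a4* (38.3), the transporter that supplies glucose 6-phosphate to it, *Ppp1ca* (37.2) and *Stbd1* (31.9), a glycogen-binding protein. They were followed by *Slc2a2* (23.3), the glucose transporter GLUT2, *Ppp1cc* (19.7), *Gckr* (18.0), the glucokinase regulator, and *Gaa* (11.9), the lysosomal glucosidase. Outside *Calm2*, *Ppp1ca* and *Ppp1cc*, none of the genes named here had an unadjusted *P* under 0.05 (edgeR).

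The members did not move together across the livers. Of the 28 pairs of members, 12 had a Pearson *r* of log2 CPM above 0 over the 8 livers, and *r* ran from −0.70 for *Ppp1r3c* and *Phka2* to 0.78 for *Pygl* and *Ppp1r3b*. These correlations describe 8 livers that share libraries and scaling, and no *P* is given. For each member the 2 genes with the highest *r* among all genes tested were found in the same way. For *Ppp1r3b* they were *Clock* (0.98) and *Arntl* (0.975), which encode the partner proteins of the activating arm of the circadian clock. *Clock* was at 39.0, 28.6, 35.7 and 25.7 CPM in LWT replicates 1 to 4 and at 23.3, 31.8, 25.4 and 33.6 CPM in LΔRbfox2 replicates 1 to 4. *Arntl* was at 8.67, 3.09, 6.47 and 2.10 CPM in LWT and at 1.71, 5.03, 1.63 and 4.77 CPM in LΔRbfox2 replicates 1 to 4. The 4 livers high in *Ppp1r3b*, LWT replicates 1 and 3 and LΔRbfox2 replicates 2 and 4, were the 4 highest in *Clock* and in *Arntl*.

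For the other members, the closest genes were *Herc6* (0.943) and *Arhgef16* (0.936) for *Gys2*, and *Celsr1* (0.965) and *Zrsr1* (0.95) for *Pygl*. For *Gbe1* they were *Ddx28* (0.978) and *Xbp1* (0.96), the latter a transcription factor of the unfolded protein response. For *Ugp2* they were *Gm5946* (0.984) and *Gm11008* (0.983), at 0.366 to 1.16 and 1.86 to 4.21 CPM. *Polh* (0.944) and *Slc19a2* (0.93), a thiamine transporter, were closest to *Ppp1r3c*, *Fads6* (0.993) and *Parp10* (0.992) to *Phka2*, and *Ctbp1* (0.968) and *Wbp2* (0.965) to *Pgm1*. With 13856 genes searched over 8 livers, a high *r* is found for every member.

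**Figure D4:**
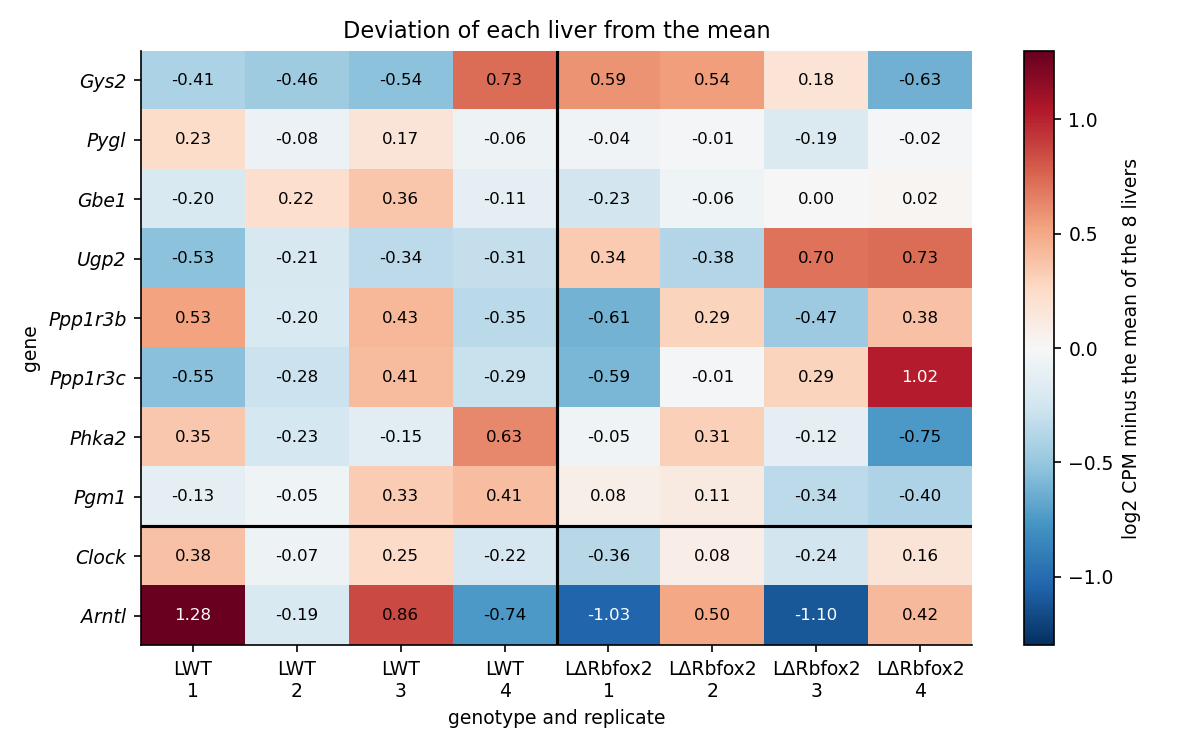
Log2 CPM of each liver (columns, by genotype and replicate) minus the mean of the 8 livers, for the 8 genes and, under the line, *Clock* and *Arntl*. *Ppp1r3b* is above its mean in LWT replicates 1 and 3 and LΔRbfox2 replicates 2 and 4, as are *Clock* and *Arntl*, and below it in the other 4 livers.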

How the data were processed

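Poly(A) RNA of 8 livers was sequenced as 100 basepair paired-end reads, which the authors aligned to GRCm38 with TopHat2 v.2.0.11 and counted per gene with featureCounts. The deposited values are whole-number counts without normalization. The version, strand and multi-mapping settings of featureCounts are not given in the sources used here. Genotype and replicate came from the labels, and 45229 of the 46078 identifiers matched GENCODE M21.

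Counts were tested in R 4.3.3 with edgeR 4.0.16: filterByExpr (minimum count 10, total 15) kept 13856 genes, and glmQLFit and glmQLFTest after TMM normalization compared genotypes, with Benjamini–Hochberg adjustment over all genes. Standard errors and intervals came from limma-voom (limma 3.58.1). Log2 CPM used a prior count of 2. DESeq2 1.42.0, other scalings and filters, corrections for GC content or gene length (lowess, span 0.3), a replicate block and each liver left out were alternatives. On simulated data with 200 genes changed, edgeR recovered 2 at a log2 fold change of 1 and 169 at 2, and DESeq2 69 and 178. Of the genes DESeq2 called, 35 of 104 and 49 of 227 had not been changed, and of those edgeR called, 2 of 4 and 15 of 184. No libraries of a genotype were copies (chi-square per degree of freedom at least 97.8). The labels do not say that livers are separate animals, so *P* values measure the spread between these samples. Members, lists and tests were chosen with earlier results of these data known. Named were all members, list genes with an unadjusted *P* under 0.05 or among the 10 highest per kb, the 2 genes most alike each member, *Rbfox2*, and others said to be chosen after their values were seen or shown with their subunit group. The result of 1 list gene is not reported here, although the counts over the list include it. Intervals and the 3-count floor cover counting error or the spread between livers only. Figures used Python 3.11.15 and matplotlib 3.10.9.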

Additional observations from a re-analysis of the deposited data

Results flagged for a closer look

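In 56 groups of 4 livers examined, 5 held a liver that stood apart from the other 3 by Dixon's criterion, which chance meets in about 1 in 20 groups. *Gys2* was at 221 CPM in LWT replicate 4. *Pygl* was at 108 CPM in LΔRbfox2 replicate 3, the lowest of a group with little spread. The ratio of *Phka2* to *Phka1* was 5.92 in LWT replicate 4, and that of *Ppp1r3b* to *Ppp1r3c* was 4.01 in LWT replicate 1. The ratio of *Pgm1* to *Pgm2* was 40.1 in LΔRbfox2 replicate 3, below the other LΔRbfox2 livers, which were already below every LWT liver.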

How the results depend on the processing

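The fold changes of *Gys2*, *Pygl*, *Gbe1*, *Ugp2*, *Ppp1r3b*, *Phka2* and *Pgm1* kept their sign in every alternative run, and no alternative brought a member past the adjusted threshold. *Ppp1r3c* turned to −0.172 without LΔRbfox2 replicates 3 and 4, an alternative added after seeing the data. *Rbfox2* passed only with DESeq2 (−1.82, adjusted *P* = 2.3e-04), which called 10 genes where edgeR called 0. The number of list genes at an unadjusted *P* under 0.05 (edgeR), 6 by the main test and all higher, was 3 with no filter on low counts (where 5.22% of all genes were higher), 2 with the GC correction (6.16%) and 2 without LΔRbfox2 replicates 3 and 4 (0.562%), all of them among the 6. With the length correction alone it was 4, of which 2 were higher and 2 lower (*Ppp1r3g* and *Pygm*). In that setting 5.77% of all genes were higher and 2.91% lower. With each liver left out in turn it was 1 to 6: 1, among the 6, without LWT replicate 1, LWT replicate 4 or LΔRbfox2 replicate 3, and 2, both lower and neither among the 6, without LWT replicate 3. The largest count, 6, all higher, came without LWT replicate 2 or LΔRbfox2 replicate 2. There 13.5% and 16.7% of all genes were higher, and 4.39% and 8.08% lower. With the replicate block the number of list genes was 0, where 1.65% of all genes were higher and 0.765% lower. Adding a length correction to the block gave 2 list genes, 1 higher and 1 lower, where 1.37% and 1.43% of all genes were. The numbers do not pair these livers: deviations of same-numbered livers correlated at 0.127, −0.613, 0.122 and −0.514, and the block changed no member's call. The cause of these changes was not tested. In simulation at a log2 fold change of 1, edgeR recovered few genes, and DESeq2 more but with 33.7% of its calls false. Depth limits the genes of low count and the ratios made from them, such as *Pygm*, with 4 to 30 counts in a liver, *Pygb* (26 to 97), *Gys1* (33 to 156) and *Pgm2* (49 to 144).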
